A study of Mus musculus with 4 samples.

Results

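Small RNA sequencing of mouse plasma after acute myocardial infarction (AMI) or Sham surgery also counted small RNAs that carry the names of Piwi-interacting RNAs (piRNAs), and 14 of these names were listed at more than 1 place in the genome. They were chosen by the way the table lists them and not by their values, though with earlier results of these data known. Every piRNA name with 2 or more rows was taken, which gave 14 of 55 piRNA names and of 976 features in all (921 miRNA entries and 55 piRNA names). The 14 names take up 53 of the 94 piRNA rows. Of the 14 names, 9 have 2 rows, 3 have 3 rows, piR_000216 has 4 rows and piR_000691 has 22. Each row has its own counts, and its label holds the name, a chromosome, a start, an end and a strand.

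The libraries came from C57BL/6 mice, which by the methods of the study were male and 8 weeks old. In the AMI group (2 libraries) the left anterior descending coronary artery was tied off for good. The Sham group (2 libraries) had the anaesthesia and the opening of the chest without the ligation, so the effects of the operation itself are in both groups. Neither the time of blood collection for these libraries nor the number of mice behind each is given, so p-values measure the spread between libraries, which may be technical. Random tags (unique molecular identifiers, UMIs) put on the cDNA allowed PCR copies of a molecule to be counted once. Wherever a group has a pair of values, that of its library 1 stands before that of its library 2.

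piRNAs are short RNAs, somewhat longer than miRNAs, that are bound by PIWI proteins and guide them to silence transposons in the germ line. Their main source in mammals is the testis. Catalogues of piRNA names were built largely from sequenced germ line RNA, and are known to contain pieces of ribosomal and transfer RNA, which are abundant and have many copies in the genome. Plasma carries such fragments together with miRNAs. A count under a piRNA name is a count of reads that match a catalogued sequence and does not show that the RNA was bound by a PIWI protein.

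Among the 14 names, 8 overlapped another of the 14 on the same strand, as 4 pairs, and each pair kept the same arrangement at every place where both were listed. piR_038312 (27 nt) is followed by piR_000216 (29 nt), and the 3′ end of the first shares 2 bases with the 5′ end of the second, at 3 places on chromosomes 3, 9 and 16. piR_022097 (32 nt) is followed by piR_000366 (27 nt) with 7 shared bases, at 2 places on chromosomes 6 and 17. Both of these pairs tile a longer stretch, of 54 nt for piR_038312 with piR_000216 and of 52 nt for piR_022097 with piR_000366. In the other pairs most bases of the shorter name are shared. piR_001570 (30 nt) and piR_000616 (32 nt) share 29 bases on chromosomes 2 and 3, where piR_000616 starts 1 nt later. piR_000159 (28 nt) and piR_039147 (21 nt) share 19 bases on chromosomes 6 and 9, where piR_039147 starts 9 nt later. In these pairs, with 29 and 19 shared bases, a molecule that covers only shared bases could be counted under either name, so their names are not independent. The 2 and 7 bases shared in the tiled pairs are too few for this. How a molecule that spans both names of a tiled pair was counted is not given.

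**Figure D1:**
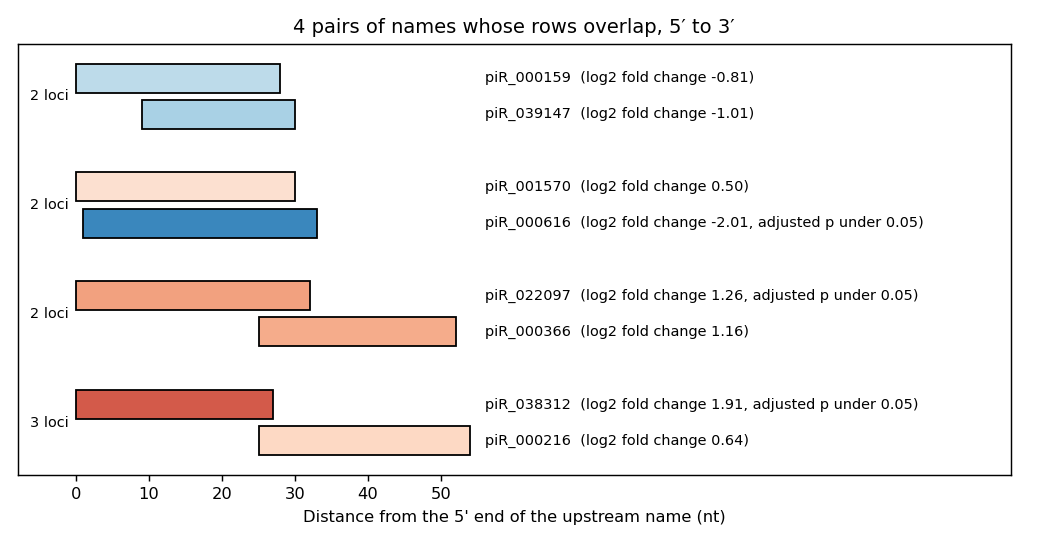
The 4 pairs of overlapping names drawn to scale, with the distance in nt from the 5′ end of the upstream name on the horizontal axis and the upstream name above its partner. Colour runs from blue (lower in AMI) to red (higher in AMI) with the log2 fold change, which is −2.01 for piR_000616 and 0.50 for piR_001570 although they share 29 bases.

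piR_000691 (26 nt) has 20 of its 22 rows on the minus strand of chromosome 8 and 1 each on chromosomes 11 and 16. The chromosome 8 rows form a tandem array that spans 84851 nt from the first start to the last, with gaps of 1673 to 8524 nt between neighbours. The build of the positions in the row labels is not given, and in GRCm38 (GENCODE M21 annotation) 0 of the 53 rows of the 14 names lay on any of 354 annotated ribosomal RNA genes. Distances do not depend on where a build places the array, so the gaps were set against those between ribosomal RNA genes. At a single shift, 19 of the 20 rows had exactly the spacing of the 5′ ends of 5S ribosomal RNA genes in the GRCm38 array on the minus strand of chromosome 8, and the next best shift matched 3. The rows next to the first, for example, lay 1707, 3392 and 10170 nt from it, and genes of the array lay at the same distances from the first matched gene. Spacing alone does not show which bases of the gene the name covers. Between the first and the last matched gene the annotation has 47 genes, of which 28 have no row. 5S ribosomal RNA is part of the large ribosomal subunit and is made from many tandem gene copies.

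The libraries held 9016139 and 11461361 UMIs from AMI plasma and 7460687 and 4842247 UMIs from Sham plasma. Zeros were not spread evenly over the table. When libraries were taken in pairs, no entry had a larger count of 1 to 9 UMIs in the pair AMI 1 and Sham 2 or in the pair AMI 2 and Sham 1 (0 entries in both), whereas the other pairings had 71 to 169 such entries. In the 14 names 9 rows of 5 names stood at 0 in both libraries of such a pair, and those zeros may hide low counts. miRNAs known from other tissues also differed between the groups. All 3 liver miRNAs of a short list were higher in AMI, with summed levels of 84794 to 118711 CPM (counts per 1000000 UMIs after scaling) in AMI and 9055 to 21000 CPM in Sham, and so were all 4 heart muscle miRNAs, at 86289 to 95934 CPM in AMI and 5781 to 11429 CPM in Sham. Of 5 red blood cell miRNAs 0 passed in edgeR (1 at an unadjusted p under 0.05 and 1 in DESeq2, miR-451a), with sums of 118181 to 139583 CPM in AMI and 98060 to 181691 CPM in Sham. Of 5 platelet and leukocyte miRNAs 0 passed in edgeR (1 unadjusted and 1 in DESeq2), with sums of 52046 to 56490 CPM in AMI and 49742 to 65685 CPM in Sham. The log2 fold changes of AMI over Sham ran from −1.27 (miR-451a) to 0.30 (miR-486b-5p) in the red blood cell list. In the platelet and leukocyte list they ran from −0.76 (miR-142a-3p) to 1.07 (miR-223-3p). The part of these tissues in the piRNA results was not tested.

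Together the 14 names took a larger share of the plasma library in AMI than in Sham mice. They made up 0.646% of the UMIs in AMI 1 (95% Wilson interval 0.641 to 0.652) and 0.388% in AMI 2 (0.384 to 0.392). In Sham 1 the share was 0.107% (0.104 to 0.109) and in Sham 2 it was 0.164% (0.161 to 0.168). The groups did not overlap, and the intervals cover counting error only. A single name, piR_000620, held 92.4% of these UMIs in either AMI library, 46.2% in Sham 1 and 53.8% in Sham 2. The 13 names other than piR_000620 made up 0.0490% and 0.0294% of the AMI libraries, below the 0.0574% and 0.0759% of the Sham libraries. piRNA names listed at 1 locus took 0.0622% and 0.0540% of the AMI libraries and 0.0418% and 0.0511% of the Sham libraries.

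To ask which names differed, the rows of each name were added up and the whole table was fitted in edgeR by its quasi-likelihood method. A fold change is on the log2 scale with AMI over Sham. p-values were adjusted by Benjamini-Hochberg over the 817 features that passed the filter on low counts, 13 of the 14 names among them, with a two-sided threshold of 0.05. Among the 14 names 3 were higher in AMI (piR_000620, piR_038312 and piR_022097) and 2 were lower (piR_000616 and piR_000691), where 14.9% of all features tested were higher and 13.6% lower. Another 8 names did not pass and 1 was not tested. When an AMI library was left out fewer of the names passed in all, and when a Sham library was left out more did. The number of calls over all features moved the same way. Both AMI libraries lay above both Sham libraries for 6 names and below for 5, beside 34.9% and 31.1% of all features. The median log2 fold change was 0.50 over the 13 names, 0.26 over the 32 tested names with 1 locus (5 higher and 8 lower of 41) and 0.03 over all features.

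**Figure D2:**
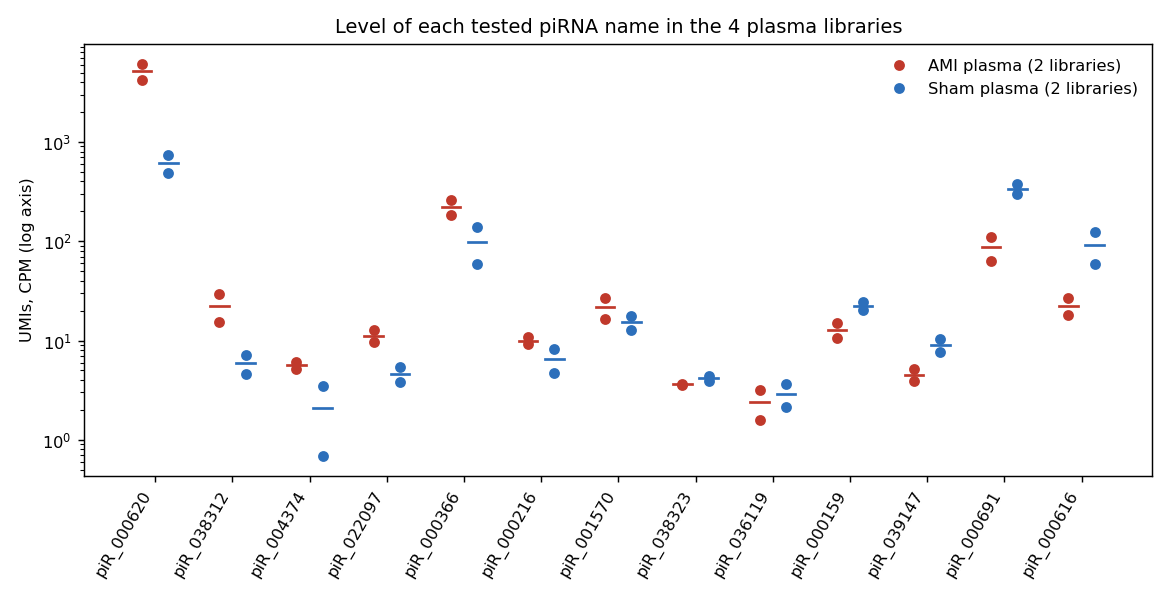
Level of the 13 tested names (horizontal axis, ordered by fold change) in CPM on a log axis, with 1 point per library, AMI left of Sham, and a line at each group's mean. piR_000620 stands at 4206 to 6151 CPM in AMI and 491 to 734 CPM in Sham, far above the other names, while piR_000691 and piR_000616 are lower in both AMI libraries.

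piR_000620, 30 nt long, had the most UMIs of the 14 names and the largest rise among them. It had 53852 and 41110 UMIs in AMI plasma and 3676 and 4272 UMIs in Sham plasma. Both AMI libraries were far above both Sham libraries. Its level was 5178 ± 1375 CPM in AMI and 612 ± 172 CPM in Sham (SD, n = 2 libraries each). The log2 fold change was 3.08 (standard error, SE, 0.42, 95% confidence interval, CI, 2.17 to 3.99, edgeR adjusted p = 0.000513), 8.46-fold higher in AMI. The call held in all 17 alternatives run for this name, with log2 fold changes of 2.78 to 3.41 and adjusted p-values of 4.65e-14 to 0.0269.

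Both rows of piR_000620 rose. The row on chromosome 18 had 30699 and 23794 UMIs in AMI plasma and 1552 and 2433 UMIs in Sham plasma. The row on chromosome 3 (5843782 to 5843811 in the row label, plus strand) had 23153 and 17316 UMIs in AMI plasma and 2124 and 1839 UMIs in Sham plasma. Fitted row by row, the log2 fold change was 3.25 on chromosome 18 and 2.88 on chromosome 3 (adjusted p = 7.71e-07 and 1.91e-06 from edgeR). The rows divided the UMIs in a nearly fixed proportion in 3 of the libraries, with 1.33 and 1.37 UMIs on chromosome 18 per UMI on chromosome 3 in AMI plasma and 1.32 in Sham 2. Sham 1 stood apart at 0.731. How reads that match several rows were divided among them is not given in the sources.

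**Figure D3:**
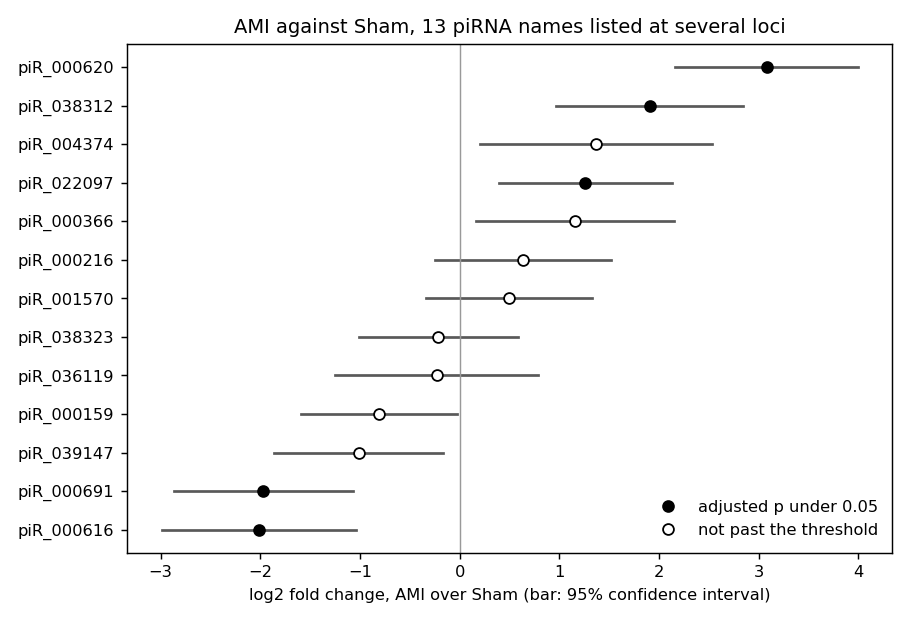
log2 fold change of AMI over Sham (horizontal axis) for the 13 tested names, with 95% confidence intervals from edgeR as bars and filled points for an adjusted p under 0.05. The filled points are piR_000620 at 3.08, piR_038312 at 1.91, piR_022097 at 1.26, piR_000691 at −1.97 and piR_000616 at −2.01.

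In the tiled pairs every name had higher levels in both AMI libraries than in either Sham library, and the upstream name of each pair passed the test. piR_038312 had 257 and 152 UMIs in AMI plasma and 54 and 27 UMIs in Sham plasma. Its level was 22.5 ± 9.76 CPM in AMI and 5.92 ± 1.81 CPM in Sham (SD, n = 2 each). The log2 fold change was 1.91 (SE 0.43, edgeR adjusted p = 0.00717), 3.75-fold higher in AMI. All 3 of its rows rose when fitted singly, with log2 fold changes of 1.63 on chromosome 16, 1.81 on chromosome 3 and 2.24 on chromosome 9 (adjusted p = 0.00706, 0.00253 and 0.000568). Without AMI 1 the rows on chromosomes 16 and 3 lost their calls (adjusted p = 0.360 and 0.127), and the chromosome 9 row passed the filter on low counts through the AMI libraries only. The call for the name was lost without AMI 1, where the log2 fold change was 1.43 (adjusted p = 0.0925, the highest of a range from 1.06e-05 over 17 alternatives).

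piR_000216, the downstream partner, had 94 and 90 UMIs in AMI plasma and 35 and 48 UMIs in Sham plasma. Its log2 fold change of 0.64 (SE 0.40, 95% CI −0.24 to 1.52) did not pass (edgeR adjusted p = 0.261). Of its 4 rows, that on chromosome 9 rose when fitted singly, at 1.52 (adjusted p = 0.0286), but it had passed the filter through the AMI libraries only and lost its call in 5 of 14 alternatives (without AMI 1, AMI 2 or Sham 1, with library size alone and in DESeq2, adjusted p = 0.0876 to 0.512). The rows on chromosomes 16, 17 and 3 were at 0.95, 0.44 and 0.12. The row on chromosome 17 has no row of piR_038312 beside it. There were 0.366 and 0.592 UMIs of piR_000216 per UMI of piR_038312 in AMI plasma and 0.648 and 1.78 in Sham plasma. The groups did not overlap in this ratio. An exact permutation test of the log2 ratios (two-sided, n = 2 against 2) gave p = 0.333, the smallest it can give.

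piR_022097 rose as well, with 111 and 95 UMIs in AMI plasma and 41 and 22 UMIs in Sham plasma. Its level was 11.2 ± 2.09 CPM in AMI and 4.63 ± 1.20 CPM in Sham (SD, n = 2 each). The log2 fold change was 1.26 (SE 0.40, edgeR adjusted p = 0.0342). This call was lost in the most alternatives of the 5 names that passed. Its 5 losses included those without AMI 1 (adjusted p = 0.241), without AMI 2 (0.0816) and without Sham 2 (0.0534), and with scaling by library size alone (0.103), in a range from 0.00227 to 0.241. On chromosome 6 (86369527 to 86369558, plus strand) it had 74 and 65 UMIs in AMI plasma and 10 and 17 UMIs in Sham plasma, and the log2 fold change was 1.86 (adjusted p = 0.00227). On chromosome 17 it had 37 and 30 UMIs in AMI plasma and 31 and 5 UMIs in Sham plasma, where the groups overlapped in level (log2 fold change 0.49, adjusted p = 0.469). This contrast between the rows rested on Sham 1. There were 2 and 2.17 UMIs on chromosome 6 per UMI on chromosome 17 in AMI plasma and 0.323 and 3.4 in Sham plasma. Without Sham 1 the order turned, with log2 fold changes of 1.30 on chromosome 6 and 1.99 on chromosome 17. The chromosome 17 value then rested on the 5 UMIs of Sham 2. With all libraries in the fit, the chromosome 17 row had passed the filter on low counts through the AMI libraries only.

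piR_000366, downstream of piR_022097, had more UMIs in AMI plasma than any of the 14 names except piR_000620. It had 2262 and 1776 UMIs in AMI plasma and 447 and 802 UMIs in Sham plasma. At 220 ± 54.2 CPM in AMI and 98.7 ± 55.3 CPM in Sham (SD, n = 2 each) its log2 fold change was 1.16 (SE 0.45, 95% CI 0.17 to 2.15), which did not pass (edgeR adjusted p = 0.0745). The Sham libraries lay far apart, at 59.7 and 138 CPM, and the estimate was 0.63 without Sham 1 and 1.89 without Sham 2, where it passed (adjusted p = 2.54e-06). Its rows kept a steady proportion, with 2.12 and 2.59 UMIs on chromosome 17 per UMI on chromosome 6 in AMI plasma and 2.10 and 2.29 in Sham plasma. Fitted singly both rows passed, at 1.18 on chromosome 17 (25602713 to 25602739, plus strand) and 1.13 on chromosome 6 (86369552 to 86369578, plus strand), with adjusted p-values of 0.0329 and 0.0350. Both lost their calls in 6 of 15 alternatives (without AMI 1, AMI 2 or Sham 1, with library size alone, with scaling by miRNA entries and in DESeq2), with adjusted p-values up to 0.344 on chromosome 17 and 0.470 on chromosome 6. The fit of single rows drew more on the spread of other features (36.7 total degrees of freedom at the median, against 11.5 in the fit of names), so a row can pass with a fold change at which its name does not.

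**Figure D4:**
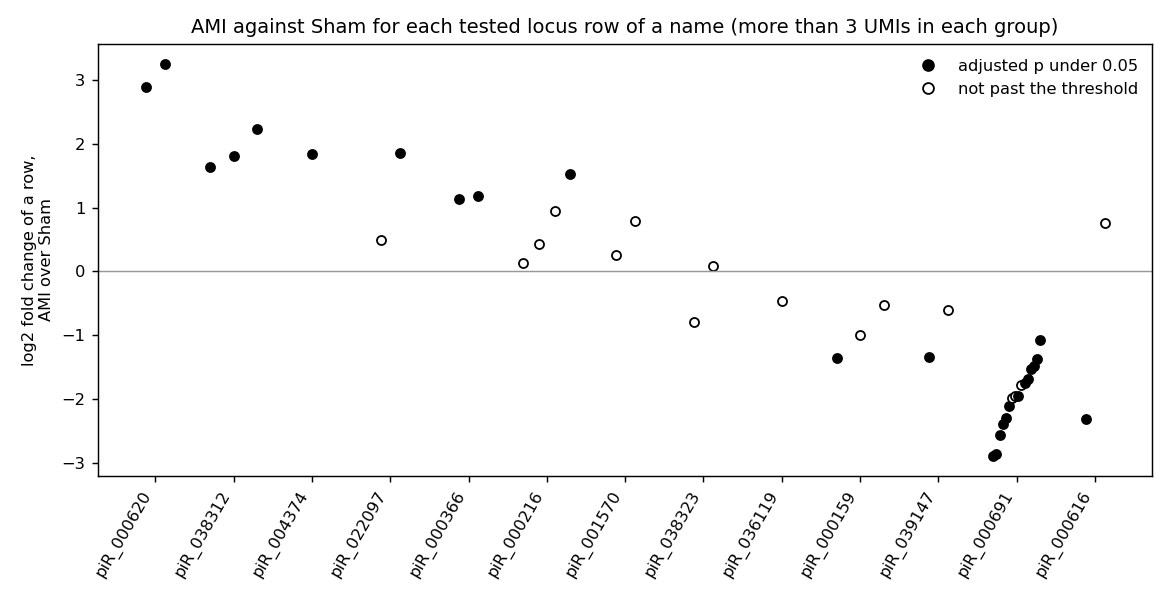
log2 fold change of AMI over Sham (vertical axis) for single rows, grouped by name and in the order of the names by fold change, for the 42 of 44 tested rows with more than 3 UMIs in each group. Filled points have an adjusted p under 0.05 from edgeR, and the rows of piR_000616 stand on opposite sides of 0, at −2.31 and 0.75, whereas the rows of piR_000691 run from −2.89 to −1.07.

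Fitted row by row, 44 of the 53 rows passed the filter, with 10 higher and 17 lower in AMI at an adjusted p under 0.05 from edgeR, beside 16.9% and 17.6% of the 848 features in that fit. Both numbers were smaller without AMI 1 and without AMI 2, among these rows and over all features. Of the 44 rows 6 passed the filter through the AMI libraries only and 10 through the Sham libraries only, and of the 27 that passed through both groups 7 were higher and 13 lower. Rows of 1 name share their libraries and may share their reads, and are not independent of one another. Of the 17 rows that were lower, 14 were rows of piR_000691. Among the 11 names with at least 2 rows that had more than 3 UMIs in each group, the rows of 9 were all on one side of 0. The exceptions were piR_000616 and piR_038323, and 0 names had rows called in both directions. This tally includes rows that passed the filter through 1 group only and rows that may share reads, so it does not show agreement between loci.

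piR_000616 was lower in AMI plasma, and its rows stood apart. The name had 234 and 178 UMIs in AMI plasma and 437 and 718 UMIs in Sham plasma. Its level was 22.5 ± 6.02 CPM in AMI and 90.9 ± 46.0 CPM in Sham (SD, n = 2 each), a log2 fold change of −2.01 (SE 0.45, edgeR adjusted p = 0.00680), 4.04-fold lower. The call was lost in 2 alternatives, one of them without AMI 2 (adjusted p = 0.0821, range over 17 alternatives 7.88e-13 to 0.0821), and without Sham 2, which had the highest level, the log2 fold change was −1.37. The row on chromosome 2 (5296571 to 5296602, minus strand) had 189 and 136 UMIs in AMI plasma and 419 and 699 in Sham plasma, and the log2 fold change was −2.31 (adjusted p = 0.000114). The row on chromosome 3 (5843413 to 5843444, plus strand) had 45 and 42 UMIs in AMI plasma and 18 and 19 in Sham plasma. Its log2 fold change of 0.75 did not pass (adjusted p = 0.179), although its level was higher in both AMI libraries than in either Sham library. There were 4.2 and 3.24 UMIs on chromosome 2 per UMI on chromosome 3 in AMI plasma and 23.3 and 36.8 in Sham plasma. These ratios did not overlap, and their exact permutation test gave p = 0.333, again the smallest that 2 against 2 allow (two-sided).

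piR_001570, which shares 29 bases with piR_000616, had more UMIs in AMI plasma, without passing the test. It had 233 and 162 UMIs in AMI plasma and 96 and 104 UMIs in Sham plasma, and its levels overlapped between the groups. The log2 fold change was 0.50 (SE 0.38, 95% CI −0.33 to 1.32, edgeR adjusted p = 0.358). Its rows had similar counts to each other, unlike those of piR_000616. On chromosome 2 it had 115 and 86 UMIs in AMI plasma and 43 and 41 UMIs in Sham plasma, and on chromosome 3 it had 118 and 76 UMIs in AMI plasma and 53 and 63 UMIs in Sham plasma. The ratio of piR_000616 to piR_001570 on chromosome 2 was 1.64 and 1.58 in AMI plasma and 9.74 and 17.05 in Sham plasma. On chromosome 3 it was 0.381 and 0.553 in AMI plasma and 0.340 and 0.302 in Sham plasma. By these counts the excess of piR_000616 over its partner in Sham plasma stood in the chromosome 2 rows. How reads that match several rows were divided is not given, so this need not place the excess at a single locus. The chromosome 3 rows of piR_000616 and piR_001570 start 369 and 370 nt before the chromosome 3 row of piR_000620, on the same strand.

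piR_000159 and piR_039147, which share 19 bases, had lower levels in AMI plasma with no overlap between the groups, and neither passed the test. piR_000159 had 130 and 103 UMIs in AMI plasma and 182 and 117 UMIs in Sham plasma, which is 12.7 ± 3.05 CPM in AMI and 22.2 ± 2.96 CPM in Sham (SD, n = 2 each). The log2 fold change was −0.81 (SE 0.36, edgeR adjusted p = 0.112). piR_039147 had 45 and 38 UMIs in AMI plasma and 78 and 45 UMIs in Sham plasma, and its log2 fold change was −1.01 (SE 0.39, edgeR adjusted p = 0.0683 and 0.0438 from DESeq2). This name passed in 8 of 17 alternatives, DESeq2 among them, and did not pass in the other 9. There were 0.346 and 0.369 UMIs of piR_039147 per UMI of piR_000159 in AMI plasma and 0.429 and 0.385 in Sham plasma, a narrow range. Of the rows fitted singly, piR_000159 on chromosome 6 fell by 1.36 on the log2 scale (adjusted p = 0.0145) and piR_039147 on chromosome 9 fell by 1.34 (adjusted p = 0.0185). Both calls were lost without AMI 2 (adjusted p = 0.332 and 0.375) and on piRNA entries alone (0.105 and 0.0871). That of piR_000159 was also lost without AMI 1 (0.05002), and that of piR_039147 without Sham 1 (0.125) and in DESeq2 (0.0647). The other 3 rows of the pair did not pass.

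piR_000691, the name with the 5S-like spacing, was lower in AMI plasma. It had 963 and 616 UMIs in AMI plasma and 2829 and 1744 UMIs in Sham plasma. Its level was 86.5 ± 33.2 CPM in AMI and 339 ± 55.0 CPM in Sham (SD, n = 2 each). The log2 fold change was −1.97 (SE 0.41, 95% CI −2.86 to −1.07, edgeR adjusted p = 0.00491), 3.92-fold lower. The call was lost without AMI 2, the library with the lowest level (log2 fold change −1.61, adjusted p = 0.130, range over 17 alternatives 6.56e-10 to 0.130).

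Along the array the counts differed widely from row to row. How reads that match several rows were divided is not given, so these counts need not be levels of single gene copies. Of the 22 rows 18 passed the filter, and 14 of them were lower in AMI at an adjusted p under 0.05 from edgeR. A row had to reach about 1.21 counts per 1000000 UMIs, before scaling, in 2 libraries to pass. Of the 18 rows 8 did so in the Sham libraries only, which favoured a lower level in AMI. The other 10 passed through both groups. All 10 were lower in both AMI libraries than in either Sham library and passed the test, with log2 fold changes from −2.56 to −1.07. Both AMI libraries lay below both Sham libraries for 32% of the 848 features in the fit of single rows. Rows of this name may share reads, so the 10 are not separate results on its fall. Of the 18 rows 5 passed without AMI 2 and 12 without AMI 1, and it was 11 of 17 without Sham 1 and 12 of 17 without Sham 2. The row with the most UMIs in AMI plasma lay 59372 nt from the first, with 211 and 139 UMIs in AMI plasma and 343 and 313 UMIs in Sham plasma. It held 21.9% and 22.6% of the UMIs of piR_000691 in AMI plasma. In Sham 1 another row led, 67827 nt from the first, with 158 and 134 UMIs in AMI plasma and 954 and 225 UMIs in Sham plasma. It held 33.7% of the UMIs of the name in Sham 1. In Sham 2 the leading row lay 61075 nt from the first, with 322 UMIs (18.5%).

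**Figure D5:**
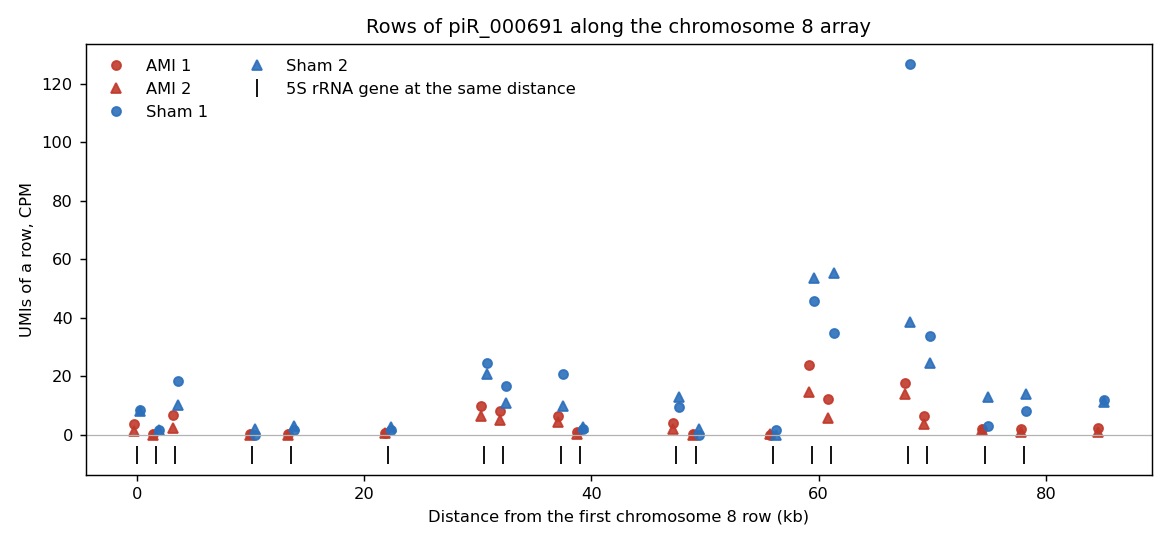
Level in CPM (vertical axis) of the 20 chromosome 8 rows of piR_000691 against the distance in kb from the first row, with circles for library 1 and triangles for library 2 of each group and AMI drawn slightly left of Sham. Ticks mark 5S ribosomal RNA genes at the same distance in GRCm38, present for 19 of the 20 rows, and the highest point is the row with 954 UMIs in Sham 1.

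The remaining names were scarce. piR_004374 (30 nt) had 45 and 60 UMIs in AMI plasma and 26 and 4 UMIs in Sham plasma, and the log2 fold change was 1.37, which did not pass (SE 0.53, edgeR adjusted p = 0.0725). The estimate depended on the Sham library used, at 2.97 without Sham 1 (adjusted p = 3.53e-05) and 0.72 without Sham 2 (adjusted p = 0.251). Its chromosome 9 row, with 45 and 48 UMIs in AMI plasma and 15 and 4 UMIs in Sham plasma, rose when fitted singly, at 1.84 (adjusted p = 0.00275), having passed the filter through the AMI libraries only, as had the name. Its chromosome 18 row had 0 and 12 UMIs in AMI plasma and 11 and 0 UMIs in Sham plasma, so that both zeros fall in the pair AMI 1 and Sham 2.

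piR_036119 (22 nt) had 14 and 31 UMIs in AMI plasma and 16 and 21 UMIs in Sham plasma, and its log2 fold change was −0.23 (95% CI −1.25 to 0.78, edgeR adjusted p = 0.763). piR_038323 (31 nt) had 31 and 36 UMIs in AMI plasma and 33 and 23 UMIs in Sham plasma, and its log2 fold change was −0.21 (−1.01 to 0.58, adjusted p = 0.721). Both intervals hold 0 and reach past −1. piR_000414 (28 nt) did not pass the filter, with 0 and 29 UMIs in AMI plasma and 7 and 0 UMIs in Sham plasma. Both of its rows were at 0 in AMI 1 and Sham 2, and no fold is given.

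PCR duplication was measured as reads per UMI. Summed over the 14 names it was 1.07 and 1.07 in AMI plasma and 1.10 and 1.24 in Sham plasma. The whole libraries stood higher, at 1.16 and 1.19 in AMI and 1.17 and 1.28 in Sham. piR_000620 held most of the summed UMIs in AMI plasma. In AMI 1 and AMI 2 the highest single names were at 1.14 (piR_036119) and 1.17 (piR_000414), below the whole libraries. In Sham plasma some names lay above the whole library. Names with UMIs ran from 1.09 (piR_000216) to 1.27 (piR_004374) in Sham 1 and from 1.17 (piR_038323) to 1.45 (piR_022097) in Sham 2. On read counts 3 names were higher and 2 lower, as on UMIs.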

How the data were processed

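Plasma small RNA of 2 AMI and 2 Sham libraries had been counted per entry, and the deposited values are counts of UMIs and of reads, with no normalization by the authors. Their notes name bcl2fastq 2.18.0.12 and mm10. Sources used here give neither the aligner and counting tool nor the build of the positions in the piRNA row labels. A blank line (1) was dropped. UMI counts of a piRNA name were added up over its rows (0 rows of a name had identical counts) and fitted together with miRNA entries in edgeR 4.0.16 under R 4.3.3, with its filter by group, TMM and a robust quasi-likelihood test. TMM factors were 0.971 and 0.853 in AMI and 1.00 and 1.20 in Sham. Standard errors were taken from the fold change and its F statistic. Rows were also fitted singly. Depth was 4842247 to 11461361 UMIs per library.

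Alternatives were DESeq2 1.42.0, other scalings, filters and summaries of a name, read counts, a replicate block and the removal of each library. The fit was tested on simulated counts of 778 features, drawn independently and all with the same spread (common dispersion 0.082). Its rates need not hold where the spread differs between features or where names overlap. There it called 21 of 63 true 2-fold changes, 56 of 65 4-fold changes and 61 of 62 8-fold changes. Of its 142 calls 4 were wrong. Every name at 2 or more loci is named. The 14 names, the marker lists and the tests were chosen with earlier results of these data known, and the ratios (exact permutation tests, scipy 1.17.1), the spacing comparison and the crossed block after the values were seen. Labels give AMI and Sham libraries the same numbers and nothing else that would pair them. Sequences are not reported here.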

Additional observations from a re-analysis of the deposited data

How the results depend on the processing

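Of the 14 names, 3 were higher and 2 lower in AMI. Fitted on piRNA entries alone 5 were higher and 4 lower, beside 10 and 14 of all 47 features in that fit. Without features at 0 in both libraries of a pair they were 5 and 2, beside 145 and 137 of 795. Counting a name by any of its rows gave 6 and 4. That count favours calls, since the row with the lowest adjusted p stands for the name. Leaving out single libraries gave 1 to 4 higher and 0 to 4 lower names, and 5 to 10 higher and 6 to 16 lower rows. The 0 lower names came without AMI 2 in edgeR, where 7 names had an unadjusted p under 0.05 in either direction; DESeq2, run on all libraries only, called 3 lower. With at least 10 UMIs in every library 6 rows were higher, of 29 tested, beside 110 of all 637 features. The replicate block gave 2 names higher and 1 lower, since piR_000616 (adjusted p = 0.0612) and piR_022097 (0.0705) lost their calls. Of all 817 features 71 were higher and 49 lower in that fit. Same-numbered libraries deviated together with a correlation of −0.25 across 817 features, and of 0.00 (0.0026) across the 795 without zeros in both libraries of a pair. A crossed block (AMI 1 with Sham 2), chosen after seeing the data, gave 5 higher and 3 lower, beside 146 and 135 of all 817 features. Scaling by library size alone put the median of all features at −0.23 in place of 0.03, with 96 higher and 165 lower in place of 122 and 111, and 2 names higher and 3 lower. In the fit of names, calls over all features also fell without an AMI library and rose without a Sham library. The causes were not tested.

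Directions changed only for values that had not passed. piR_038323 was at 0.073 by its largest row, and piR_036119 ran from −0.82 to 0.21 when single libraries were left out. Among rows, library size alone put piR_000216 on chromosome 3 at −0.15, piR_001570 on chromosome 3 at −0.020 and piR_038323 on chromosome 14 at −0.17, and read counts put the last at −0.057. Leaving out single libraries gave −0.081 to 0.85 for piR_000216 on chromosome 17, −0.096 to 0.28 for piR_000216 on chromosome 3, −0.14 to 0.59 for piR_001570 on chromosome 3, −0.20 to 1.99 for piR_022097 on chromosome 17, −1.08 to 0.26 for piR_036119 on chromosome 2 and −0.45 to 0.96 for piR_038323 on chromosome 14. Of 220 values for names over all alternatives 181 kept direction and call, 9 lost a call, 27 gained one and 3 changed direction, and of 643 values for rows 567, 46, 16 and 14 did so. Counting identical rows of a name once or in full was the same fit, as there were 0 such rows, and is not counted among these.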
